A study of Homo sapiens with 6 samples.

Results

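Read counts of 10 genes of the YAP/TAZ pathway (YAP1, WWTR1, TEAD1, TEAD4, CCN1, CCN2, ANKRD1, AMOTL1, AMOTL2, and LATS2) are described in NSCLC cell lines with and without an siRNA against the long noncoding RNA MALAT1. The genes were taken by symbol from a deposited table of 46427 genes, where each symbol had its own entry with reads in all 6 libraries. RNA-seq of total RNA was performed on 1 control and 1 si-MALAT1 library of each of H460, H1299, and A549, which are established lines from human non-small cell lung cancers. The sample labels describe the control cells as non-treated, while the methods name both negative control cells and cells given si-Control. Effects of transfection or of the siRNA itself therefore cannot be told apart from the lowering of MALAT1. With 1 library per cell line and condition, the replicates of the comparison are the 3 cell lines.

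YAP1 and WWTR1 (the gene of TAZ) are transcriptional coactivators that do not bind DNA themselves and act mainly through the TEAD transcription factors. In the Hippo kinase cascade of MST1/2 and LATS1/2, LATS1/2 phosphorylate YAP and TAZ, which holds them in the cytoplasm. Low cell density, stiff matrix, and actin tension favour entry of YAP and TAZ into the nucleus. CCN1, CCN2, and ANKRD1 are the genes most often read as YAP/TAZ targets, and AMOTL2 and LATS2 are targets whose products act back on the pathway.

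The libraries held between 42506818 and 68515992 counted reads. MALAT1 was at 20.1% of the control for H460, 12.9% for H1299, and 13.9% for A549 on RLE-scaled counts, that is, counts divided by a size factor per library, and edgeR gave it an adjusted p of 0.0381. All 6 epithelial markers, among them KRT8 and KRT18, keratins of simple epithelium, were read in all 6 libraries. Their summed TPM (a level corrected for transcript length and depth) ran from 459 to 5509, with a keratin as the highest marker in each library. For control and si-MALAT1 it was 1246 and 896 for H460, 481 and 459 for H1299, and 5509 and 2454 for A549. Markers above 1 TPM numbered 4 in both H460 libraries, 2 and 3 for H1299 (control and si-MALAT1), and 5 and 6 for A549. CDH1, the epithelial cadherin, was near 0 for H460 and H1299, at no more than 0.0468 TPM. EPCAM was below 1 TPM in both of these lines, as was KRT19 in H1299. PTPRC and CD3E, which mark leukocytes and T cells, had 0 reads, and the summed TPM of 8 markers of immune, endothelial, and fibroblast cells was between 18.1 and 47.6, most of it from CD68 and, in H460 and A549, COL3A1.

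CCN1 (Gene ID 3491, chromosome 1 from 85580761 to 85583950 on GRCh38) encodes a secreted matricellular protein that binds integrins. Its RLE-scaled read count for control and si-MALAT1 libraries was 1544 and 560 for H460, 1852 and 911 for H1299, and 1027 and 439 for A549. All si-MALAT1 libraries were below all control libraries. The log2 fold change, si-MALAT1 minus control, was -1.46 for H460 (95% interval -1.60 to -1.33), -1.02 for H1299 (-1.13 to -0.92), and -1.22 for A549 (-1.41 to -1.04), where the exact intervals cover counting error only. Of the 3 targets it had the most even difference across lines, with a mean of -1.24 ± 0.22 (SD, n = 3), and the paired edgeR test gave an adjusted p of 0.0734. Without H460 the adjusted p of edgeR was 0.0383, without H1299 it was 0.131, and without A549 it was 0.460. Because these are bulk libraries, fewer expressing cells and less RNA per cell cannot be told apart.

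CCN2 (Gene ID 1490, chromosome 6 from 131948176 to 131951372) is the connective tissue growth factor, another secreted protein of the same family. The stretch of its RefSeq promoter on GRCh38.p14 at chr6:131951452-131951551, minus strand, is shown because it holds 3 copies of the TEAD word GGAATG, in capitals, starting at positions -169, -104, and -95 from the transcription start.
CCN2: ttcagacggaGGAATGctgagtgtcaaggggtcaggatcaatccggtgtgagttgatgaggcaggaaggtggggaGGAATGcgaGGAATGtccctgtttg
Scaled counts of CCN2 were 11570 and 5832 for H460 (control and si-MALAT1), 684 and 442 for H1299, and 1094 and 366 for A549. Both H460 libraries were above every other library, so the treatment groups overlap across lines although each si-MALAT1 library was below its own control. Within lines, the log2 fold change was -0.99 for H460 (-1.03 to -0.94), -0.63 for H1299 (-0.79 to -0.47), and -1.58 for A549 (-1.78 to -1.39). Over the lines it averaged -1.07 ± 0.48 (SD, n = 3), and edgeR gave an adjusted p of 0.0994.

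ANKRD1 (Gene ID 27063, chromosome 10 from 90912096 to 90921087) encodes a nuclear ankyrin repeat protein best known from stretched heart and skeletal muscle. Its promoter at chr10:90921200-90921317 on GRCh38.p14, minus strand, is shown for 2 copies of GGAATG, in capitals, at positions -220 and -128 from the start. The AP-1 word TGANTCA, left in lower case, lies between them at position -195.
ANKRD1: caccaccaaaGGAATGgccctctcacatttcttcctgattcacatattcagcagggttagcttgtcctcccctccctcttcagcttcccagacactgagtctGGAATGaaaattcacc
ANKRD1 had scaled counts of 247 and 119 for H460, 20.6 and 11.3 for H1299, and 986 and 85.7 for A549. The difference in A549, where it stood at 8.79% of the control, was the largest of the 30 within-line differences of the 10 genes. On the log2 scale, the difference was -3.51 for A549 (-3.89 to -3.17) and -1.04 for H460 (-1.37 to -0.73). In H1299, with 26 reads in the control and 13 after si-MALAT1, it was -0.81 with an interval that included 0 (-1.95 to 0.14). Among the 30 intervals, only that of ANKRD1 in H1299 included 0. The intervals cover counting error within 1 pair of libraries, so leaving out 0 does not show a difference beyond the spread between cultures. The mean was -1.79 ± 1.49 (SD, n = 3), the widest spread of the 10 genes, and the adjusted p in edgeR was 0.212.

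The TEAD word, searched as GGAATG or its reverse complement CATTCC within 250 bases before and 50 after the start, occurs in 14.0% of 35116 RefSeq promoters. At least 2 copies occur in 1.37% of them, as in ANKRD1, and at least 3 in 0.128%, that is, 45 promoters, CCN2 among them. Of the 10 genes, 7 matched an entry with 9 promoters, and the genes CCN1, TEAD1, and TEAD4 did not. AMOTL2, LATS2, and YAP1 had 1 copy each, WWTR1 and AMOTL1 had none, and TGANTCA occurs in 7.7% of all promoters and only in ANKRD1 of the 7 genes. These matches describe the letters of the window and do not show binding.

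**Figure D1:**
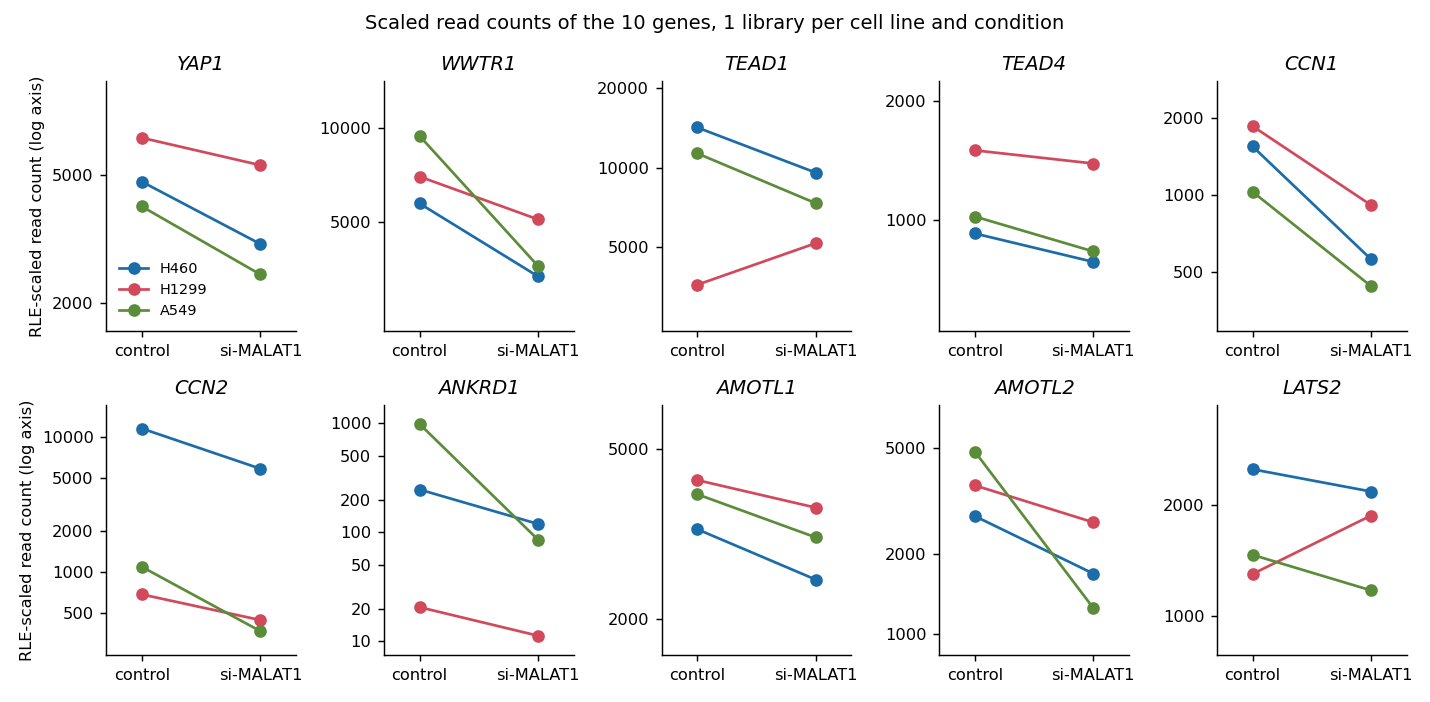
RLE-scaled read count on a log axis (vertical) in the control and si-MALAT1 library of each cell line, 1 panel per gene, with a line joining the 2 libraries of a cell line. CCN1, CCN2, ANKRD1, WWTR1, YAP1, AMOTL1, AMOTL2, and TEAD4 slope downward in all 3 lines, and TEAD1 and LATS2 slope upward in H1299.

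The coactivator genes were lower after si-MALAT1 in each line. YAP1 (Gene ID 10413, chromosome 11 from 102109957 to 102233424) had scaled counts of 4763 and 3053 for H460, 6517 and 5360 for H1299, and 3990 and 2456 for A549. The H1299 si-MALAT1 library was above the H460 and A549 controls, so the groups overlap. YAP1 was at 64.1% of the control for H460, 82.2% for H1299, and 61.6% for A549, its mean log2 fold change was -0.54 ± 0.23 (SD, n = 3), and the edgeR adjusted p was 0.143.

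WWTR1 (Gene ID 25937, chromosome 3 from 149517229 to 149724788) had scaled counts of 5733 and 3344 for H460, 6993 and 5096 for H1299, and 9448 and 3611 for A549. All si-MALAT1 libraries were below all controls, and A549 had the highest of the controls. The log2 fold change was -0.78 for H460 (-0.84 to -0.72), -0.46 for H1299 (-0.50 to -0.41), and -1.39 for A549 (-1.45 to -1.33). Over the lines it averaged -0.87 ± 0.47 (SD, n = 3), and edgeR gave an adjusted p of 0.129. By TPM, WWTR1 was above YAP1 in all 6 libraries, from 1.05 times in H1299 after si-MALAT1 to 2.55 times in the A549 control.

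Among the TEAD factors, TEAD1 (Gene ID 7003, chromosome 11 from 12674421 to 12944737) differed in direction between lines. Its scaled counts were 14220 and 9585 for H460, 3597 and 5171 for H1299, and 11340 and 7338 for A549. Only H1299, the line with the lowest TEAD1, was higher after si-MALAT1. By line, the log2 fold change was -0.57 for H460 (-0.61 to -0.53), 0.52 for H1299 (0.47 to 0.58), and -0.63 for A549 (-0.68 to -0.58). The mean was -0.22 ± 0.65 (SD, n = 3), and the adjusted p in edgeR was 0.692.

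TEAD4 (Gene ID 7004, chromosome 12 from 2959397 to 3040676) had scaled counts of 922 and 781 for H460, 1499 and 1388 for H1299, and 1018 and 830 for A549. These were the smallest differences of the 10 genes in a common direction, at 84.7%, 92.6%, and 81.6% of the control. Its mean log2 fold change was -0.21 ± 0.094 (SD, n = 3), and the edgeR adjusted p was 0.423.

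AMOTL2 (Gene ID 51421, chromosome 3 from 134355345 to 134375417) and AMOTL1 (Gene ID 154810, chromosome 11 from 94706418 to 94876748) encode angiomotin-like proteins that bind YAP and TAZ at cell junctions and the cytoskeleton. AMOTL2 had scaled counts of 2777 and 1689 for H460, 3623 and 2632 for H1299, and 4852 and 1254 for A549. No si-MALAT1 library reached a control library, and A549 had both the highest and the lowest library. The log2 fold change was -0.72 for H460 (-0.80 to -0.63), -0.46 for H1299 (-0.53 to -0.39), and -1.95 for A549 (-2.05 to -1.85). Over the lines it averaged -1.04 ± 0.80 (SD, n = 3), and edgeR gave an adjusted p of 0.190.

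AMOTL1 had scaled counts of 3241 and 2472 for H460, 4221 and 3640 for H1299, and 3912 and 3102 for A549. The difference was smaller than that of AMOTL2 and even across lines, its mean log2 fold change was -0.31 ± 0.090 (SD, n = 3), and the edgeR adjusted p was 0.239. AMOTL2 exceeded AMOTL1 in TPM in the 3 controls, by 1.70 times in H460, 1.71 times in H1299, and 2.42 times in A549. After si-MALAT1 the order of the pair was turned only in A549, where AMOTL1 was at 7.47 TPM and AMOTL2 at 5.79 TPM.

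LATS2 (Gene ID 26524, chromosome 13 from 20973036 to 21061586), the kinase that restrains YAP and TAZ, had 2713 and 2229 unscaled reads for H460, 1639 and 2161 for H1299, and 1113 and 984 for A549. As for TEAD1, H1299 was the line with the opposite sign. Within lines, the log2 fold change was -0.20 for H460 (-0.28 to -0.12), 0.53 for H1299 (0.44 to 0.62), and -0.32 for A549 (-0.45 to -0.20). The mean was 0.0018 ± 0.46 (SD, n = 3), and the adjusted p in edgeR was 0.979.

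**Figure D2:**
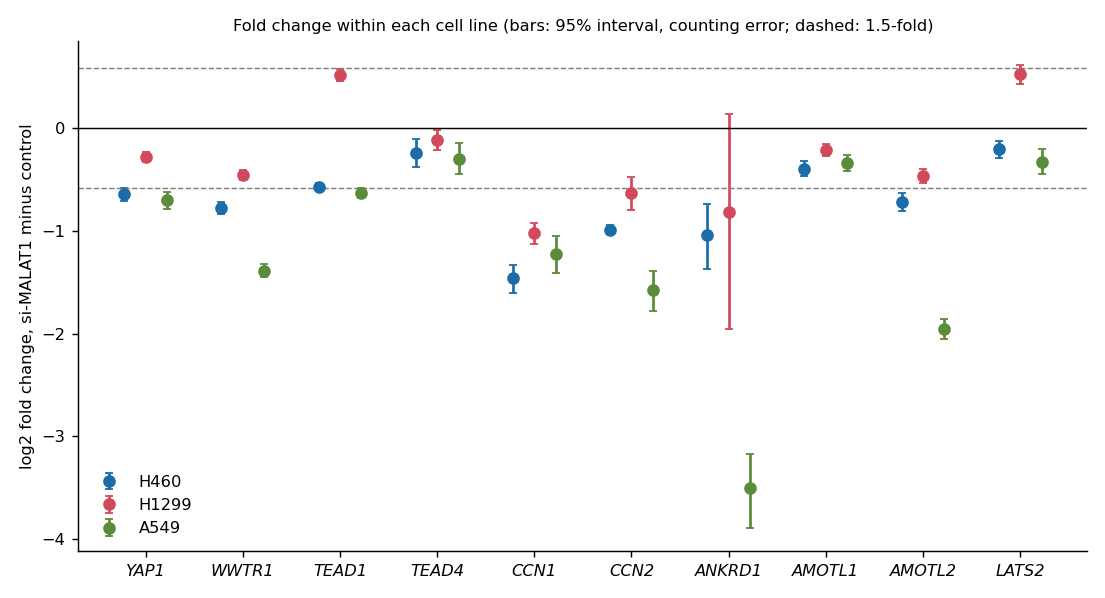
Log2 fold change, si-MALAT1 minus control (vertical), of each gene within each cell line, with exact 95% intervals for counting error as bars and dashed lines at a fold of 1.5. ANKRD1, AMOTL2, CCN2, and WWTR1 are lowest in A549, and the H1299 point is the highest of the 3 for each gene.

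Across the 3 lines, no gene of the 10 passed edgeR at an adjusted p of 0.05, where 0.00523% of 19122 genes, MALAT1 alone, were called lower and 0% higher. At an unadjusted p under 0.05, 7 of the 10 genes were lower (YAP1, WWTR1, CCN1, CCN2, ANKRD1, AMOTL1, and AMOTL2), against 7.59% of all genes tested. DESeq2, run as the alternative tool on the same design, called 6 of the 10 lower, against 4.25% of the 13561 genes to which it gave an adjusted p. Its adjusted p was 1.12e-09 for CCN1, 4.41e-05 for CCN2, and 0.000945 for WWTR1. It was 0.00593 for YAP1, 0.00907 for AMOTL2, and 0.0205 for ANKRD1. Leaving aside DESeq2 with a line left out, the adjusted p of each of these 6 genes ran over the alternatives from that DESeq2 value up to 1 in edgeR without the cell line in the model. Leaving out 1 cell line in DESeq2 was an alternative added after seeing the data, and the share of all genes called in it was not counted. CCN1, CCN2, WWTR1, and AMOTL2 were called whichever line was left out. YAP1 was lost without A549 (adjusted p = 0.0663), ANKRD1 got no adjusted p without H1299 or without A549, and AMOTL1 was gained without H460 (adjusted p = 0.0288). TEAD1 was called lower by DESeq2 once H1299 was left out (adjusted p = 9.77e-06), with a log2 fold change of -0.61. This left out the only line in which TEAD1 was higher, so the call describes H460 and A549 alone. Without H1299, edgeR gave TEAD1 an adjusted p of 0.146.

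By size alone, CCN1, CCN2, and ANKRD1 were lower by at least 1.5-fold in all 3 lines, against 1.28% of the 17834 genes with reads in all 6 libraries. CCN1 alone passed in all 3 lines under each within-line alternative, since in H1299 the log2 fold change of CCN2 was -0.48 on log2(TPM + 1), and that of ANKRD1 was -0.52 with a pseudocount of 10 and -0.14 on log2(TPM + 1). In H460, 6 of the 10 genes passed 1.5-fold (YAP1, WWTR1, CCN1, CCN2, ANKRD1, and AMOTL2), where 10.3% of all genes did, and TEAD1 joined them at -0.59 on TMM-scaled counts and -0.68 on log2(TPM + 1). In H1299, the 3 targets did on RLE-scaled counts, against 11.4%, and in A549 the same 6 as in H460 and TEAD1 did, against 11.4%. Lower by any amount in all 3 lines were 8 of the 10 genes, against 18.8% of all genes. Complete separation of the si-MALAT1 from the control libraries, seen for WWTR1, CCN1, and AMOTL2, occurred in 2.59% of all genes. The median of the 10 mean log2 fold changes was -0.71, beside 0.011 over all genes. The 10 genes were chosen with earlier results of these data known, so these counts are descriptions.

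The size of the difference varied by line. The value was highest in H1299 for all 10 genes, against 37.1% of all genes, and for 6 of them (YAP1, WWTR1, TEAD1, CCN2, AMOTL2, and LATS2) the H1299 interval lay clear of both other lines. It was lowest in A549 for 8 of the 10, against 31.1% of all genes, and the A549 interval of WWTR1, CCN2, ANKRD1, and AMOTL2 lay clear of both others. The exceptions were CCN1 and AMOTL1, lowest in H460. The median over the 10 genes was -0.68 for H460, -0.37 for H1299, and -0.96 for A549, while the median over all genes was within 0.022 of 0 in each. The intervals cover counting error only, so the difference between lines has no replicate check. How many of all genes had an interval clear of both other lines was not counted, and genes with many reads have narrow intervals. As a share of the control, MALAT1 after si-MALAT1 was lowest in H1299. By level it was lowest in A549, with scaled counts of 42910 for H460, 41590 for H1299, and 17200 for A549. In TPM it was at 82.5, 109.8, and 42.2. A link between remaining MALAT1 and the size of the difference was not tested.

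Levels of several of the 10 genes also differed between the cell lines. Each line was represented by its control and si-MALAT1 library, with treatment in the edgeR model as an effect shared by the lines. The spread behind the p-values is therefore how unevenly the lines differed between control and si-MALAT1, and not a spread between cultures. The count of genes called was 52.6% of all genes tested for H1299 against H460, 38.2% for A549 against H460, and 48.9% for A549 against H1299. Of the 10 genes, 6, 2, and 5 were called in these comparisons, that is, 60%, 20%, and 50%. Of these 13 calls, 5 held under each of the 10 alternatives tried. The TPM means and SDs below are over the control and si-MALAT1 library of a line, so each SD includes the difference between them.

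CCN2 was highest in H460, with a mean of 67.0 ± 35.2 TPM (SD, n = 2) there, 5.35 ± 1.47 for H1299, and 6.76 ± 4.81 for A549. It was 15.0-fold higher in H460 than in H1299 (edgeR adjusted p = 9.44e-05) and 12.7-fold higher than in A549 (edgeR adjusted p = 0.000187), and both calls held under each alternative. H1299 and A549 were not separated, with a log2 difference of 0.24 and a 95% interval from -0.33 to 0.80. CCN1 did not share this pattern. It had 8.36 ± 5.97 TPM for H460, 13.5 ± 6.10 for H1299, and 6.97 ± 3.99 for A549 (SD, n = 2), so that CCN2 was 7.30 times CCN1 in the H460 control and 0.359 times in the H1299 control.

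ANKRD1 was nearly absent from H1299, at 0.191 ± 0.079 TPM (SD, n = 2), and stood at 1.84 ± 1.01 for H460 and 6.49 ± 7.73 for A549. It was 23.9-fold higher in A549 than in H1299 (edgeR adjusted p = 0.00391), under each alternative. The 12.4-fold difference between H460 and H1299 (edgeR adjusted p = 0.00774) was lost without the H1299 control library (adjusted p = 0.0628). A549 and H460 were not separated, with a log2 difference of 0.95 (-0.60 to 2.50), and the difference was called without the A549 si-MALAT1 library (edgeR adjusted p = 0.0159).

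**Figure D3:**
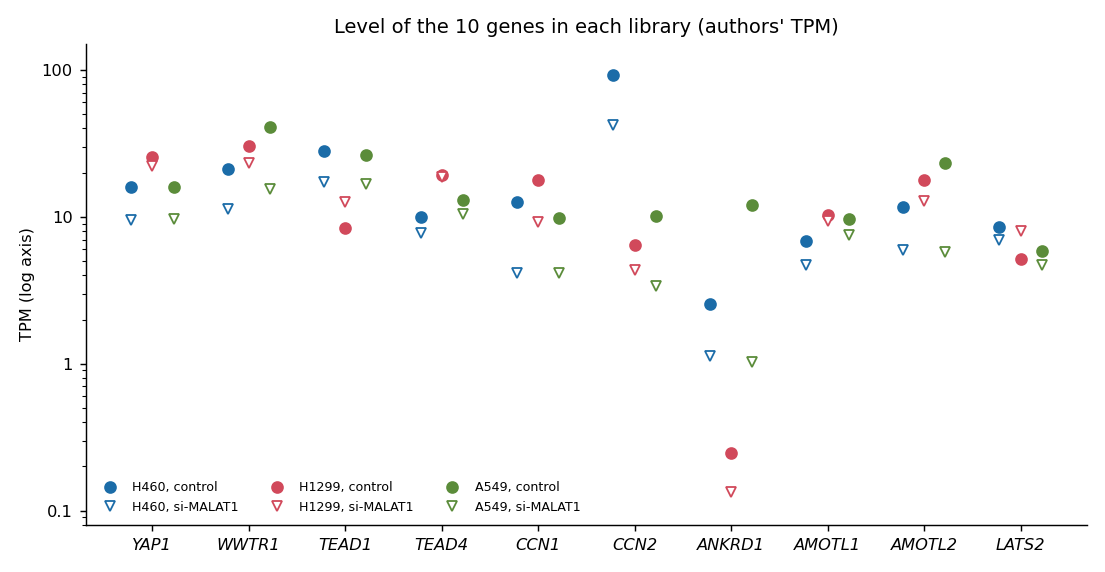
TPM on a log axis (vertical) of each gene in each library, filled circles for control and open triangles for si-MALAT1, by cell line. CCN2 is highest in H460, ANKRD1 is lowest in H1299, and the other genes lie mostly between 4 and 41 TPM.

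TEAD1 and TEAD4 had opposite patterns over the lines. TEAD1 was 2.66-fold lower in H1299 than in H460 (edgeR adjusted p = 0.00903) and TEAD4 was 1.69-fold higher there (edgeR adjusted p = 0.00567), and both held under each alternative. Against A549, TEAD1 was 2.08-fold lower in H1299 (edgeR adjusted p = 0.0274), a call lost without the A549 control and without the low-count filter. TEAD4 was 1.56-fold higher in H1299 than in A549 (edgeR adjusted p = 0.0117), a call lost without either A549 library or without the H1299 si-MALAT1 library. Of the summed TPM of TEAD1 to TEAD4, TEAD1 made up 56.3% in the H460 control, 17.8% in the H1299 control, and 48.5% in the A549 control. TEAD4 made up 20.1%, 41.2%, and 24.0%, and TEAD2 21.1%, 33.1%, and 23.7%. After si-MALAT1, the share of TEAD1 was 49.0% for H460, 23.4% for H1299, and 36.2% for A549, a smaller gap between H1299 and the other lines than in the controls.

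**Figure D4:**
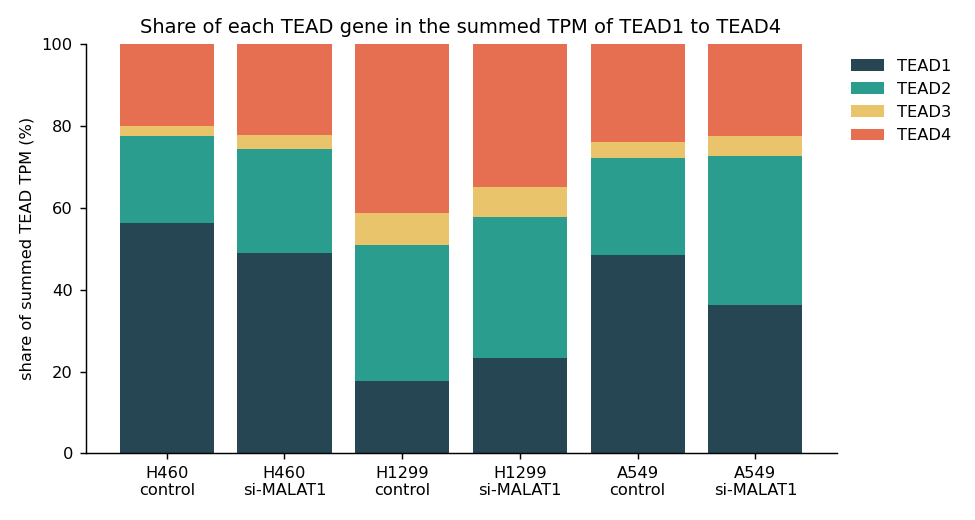
Share of each TEAD gene in the summed TPM of the 4 TEAD genes (vertical, percent), as stacked bars by library. TEAD1 takes 17.8% and 23.4% in the H1299 libraries and between 36.2% and 56.3% in the others.

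Among the remaining genes, each call depended on single libraries. With cell line alone in the model, the calls for YAP1, CCN1, and AMOTL1 were lost as well. YAP1 had 23.9 ± 2.44 TPM for H1299 (SD, n = 2), above 12.8 ± 4.64 for H460 and 12.8 ± 4.42 for A549. It was 1.54-fold higher in H1299 than in H460 (edgeR adjusted p = 0.0161), a call lost without the si-MALAT1 library of either line. It was 1.88-fold higher in H1299 than in A549 (edgeR adjusted p = 0.00436), a call lost without the A549 si-MALAT1 library. H1299 was thus the line with the highest YAP1 and TEAD4 and the lowest TEAD1. CCN1 was 1.92-fold higher in H1299 than in A549 (edgeR adjusted p = 0.00491), which was lost without either A549 library. AMOTL1 was 1.37-fold higher in H1299 than in H460 (edgeR adjusted p = 0.0251), a call lost when any single library except the H1299 control was left out. LATS2 was 1.78-fold lower in A549 than in H460 (edgeR adjusted p = 0.0309), which was lost without the H460 control, either A549 library, or the low-count filter. With all 6 libraries, WWTR1 and AMOTL2 gave no call between lines. WWTR1 was called higher in H1299 than in H460 without the H1299 control (edgeR adjusted p = 0.0435), and AMOTL2 was called lower in A549 than in H1299 without the A549 control (edgeR adjusted p = 0.0345). WWTR1 had 16.2 ± 7.01 TPM for H460, 26.8 ± 5.10 for H1299, and 28.1 ± 17.9 for A549 (SD, n = 2). For A549 against H1299 its log2 difference was -0.012 with an interval from -0.57 to 0.55.

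The wider pathway was read from 4 lists, which were also chosen with earlier results of these data known. Among 16 Hippo kinases and upstream regulators, all with reads in all 6 libraries, 2 were lower and 3 higher in all 3 lines, 11 were mixed, and none passed edgeR or DESeq2 at an adjusted p of 0.05. Of all genes with reads in all libraries, 18.8% were lower in all 3 lines. In edgeR, 2 of the 16 were lower and 0 higher at an unadjusted p under 0.05, where 7.59% of all genes tested were lower. FRMD6, a FERM protein of the cell cortex upstream of the kinases, had a mean log2 fold change of -0.41 ± 0.27 (SD, n = 3). MOB1B, the cofactor of LATS1/2, was at -0.41 ± 0.33. LATS1 was at 0.22 ± 0.21, and the ratio of LATS2 to LATS1 in TPM was 2.09 in the H460 control, 0.533 in the H1299 control, and 1.45 in the A549 control. AMOT, the third angiomotin, had 349 and 328 reads for H460, 918 and 1200 for H1299, and 14 and 67 for A549, with log2 fold changes of -0.0080, 0.52, and 2.06.

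Of 6 other TEAD factors and cofactors, 4 had reads in all libraries, and VGLL4 stood apart. VGLL4 competes with YAP and TAZ for TEAD and acts as a corepressor. Its scaled counts were 2128 and 2914 for H460, 1595 and 3595 for H1299, and 1174 and 2504 for A549. It was higher after si-MALAT1 in every line, with log2 fold changes of 0.45, 1.17, and 1.09. The adjusted p was 0.109 in edgeR and 0.00028 in DESeq2, which called 4.15% of genes higher, and over the alternatives it ran up to 1 in edgeR without the cell line in the model. Without H460, edgeR called VGLL4 higher (adjusted p = 0.0309). TEAD2 and TEAD3 were at 0.21 and 0.11 on the mean log2 scale, and neither passed a test.

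Of 17 other genes known as YAP/TAZ targets, 16 had reads in all libraries. Of these, 3 were lower in all 3 lines (RBMS3, NUAK2, and ARHGEF17), 1 was higher (F3, tissue factor), and 12 were mixed. Among all genes with reads in all libraries, 18.8% were lower in all 3 lines, so this list was near that share. DESeq2 called 1 of the 17 lower, RBMS3, against 4.25% of the genes to which it gave an adjusted p. The median mean log2 fold change of the 16 genes was -0.10, beside -0.71 for the 10 genes and 0.011 for all genes. RBMS3, an RNA-binding protein, had scaled counts of 4457 and 2921 for H460, 895 and 587 for H1299, and 365 and 163 for A549. It passed 1.5-fold in each line, and its adjusted p was 0.110 in edgeR and 0.00125 in DESeq2, and up to 1 in edgeR without the cell line in the model. NUAK2, a kinase of the AMPK family, was at -0.60 ± 0.43 on the mean log2 scale (SD, n = 3), and its adjusted p was 0.216 in edgeR and 0.0891 in DESeq2, and 1 in edgeR without the cell line.

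SRF and its cofactors MRTF respond to actin and share targets with YAP/TAZ. Of 10 SRF/MRTF targets, 8 had reads in all libraries, with a median mean log2 fold change of -0.13. In all 3 lines, 2 were lower (VCL and SRF itself) and 1 was higher (CNN2, a calponin), where 18.8% of all genes were lower. VCL encodes vinculin, the protein that couples integrins to actin at focal adhesions. Its scaled counts were 15010 and 7272 for H460, 23060 and 11870 for H1299, and 11320 and 4512 for A549. All its si-MALAT1 libraries except that of H1299 were below every control. The log2 fold changes were -1.05, -0.96, and -1.33, and the adjusted p was 0.0734 in edgeR and 7.47e-14 in DESeq2. For VCL, edgeR gave 0.0383 as the adjusted p without H460 and 1 without the cell line in the model. SRF was at -0.33 on the mean log2 scale and passed neither test.

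**Figure D5:**
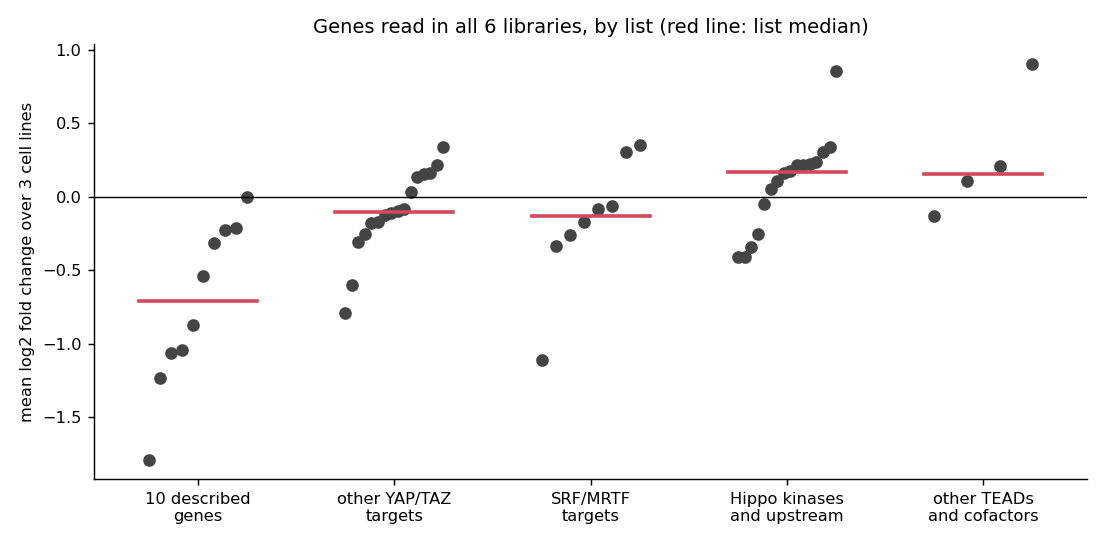
Mean log2 fold change over the 3 cell lines (vertical) of each gene with reads in all 6 libraries, by list, with the list median as a red line. The medians are -0.71 for the 10 genes, -0.10 for 16 other YAP/TAZ targets, -0.13 for 8 SRF/MRTF targets, 0.17 for 16 Hippo genes, and 0.16 for 4 TEAD factors and cofactors.

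The other members of the CCN family could not be followed in all 3 lines, since none had reads in all 6 libraries. CCN3 had 80 and 40 reads for control and si-MALAT1 of H460, 275 and 125 for H1299, and 0 in both A549 libraries. CCN5 had 566 and 905 reads in H460, 0 for H1299, and 532 and 244 for A549. CCN5 was therefore higher in H460 and lower in A549, unlike CCN1 and CCN2. Of the 6 epithelial markers, 2 were lower in all 3 lines, against 18.8% of all genes, 1 was higher, and 3 were mixed. EPCAM was higher in every line, with a mean log2 fold change of 1.16 and from 23 to 196 reads in the controls, and KRT18 was lower in every line, with a mean of -0.60. The keratins KRT7, KRT8, and KRT18 were lowest relative to the control in A549, where 8 of the 10 genes also were. In the same line, KRT19, CDH1, and EPCAM were higher after si-MALAT1. The part of these markers in the results of the 10 genes was not tested.

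The genes with the level pattern most like each target were taken from 19122 genes by Pearson's r of log2 CPM over the 6 libraries, which are 3 pairs from 3 lines, so that differences between lines weigh heavily. For CCN2 they were APP, PDIA3, and RNF41, with r of 0.999, 0.996, and 0.996. For ANKRD1 they were TLCD4, CD151, and NBN, with r of 0.995, 0.990, and 0.990. For CCN1 they were SERF2-C15ORF63, NHLRC3, and ST3GAL3, with r of 0.990, 0.983, and 0.983. None of these genes was another of the 10.

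The 3' UTRs of the 10 genes, in the canonical GENCODE transcripts on GRCh38, were searched for the words TGAATCA and ATGAATC, which were chosen with the fold changes of all genes in these data known. Either word occurs in 18.1% of 12119 expressed coding genes and in 2 of the 10, YAP1 and AMOTL1, with 1 copy each. Both sites are shown with the word in capitals, since they are the only ones in the 10 genes, at chr11:102232574-102232597 for YAP1 and chr11:94876200-94876223 for AMOTL1, plus strand.
YAP1: ttttgagttTGAATCAtagccttg
AMOTL1: ggttttattTGAATCAaggtgttt
The share among the 10 genes is close to that of all expressed coding genes, without allowance for length. The median 3' UTR was 2099 bases for the 10 genes and 1368 for the expressed coding genes. CCN1, CCN2, ANKRD1, WWTR1, and AMOTL2 hold neither word in 3' UTRs of 911, 1091, 773, 3573, and 2361 bases. TEAD1, TEAD4, and LATS2 hold neither in 7518, 201, and 1837 bases. A link between the words and the differences was not tested.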

How the data were processed

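Total RNA of 6 samples, 1 per condition and cell line, was sequenced after rRNA removal with a stranded kit. The authors made the deposited read counts and TPM with HISAT 2.1.0 on hg38 and StringTie, for which the paper and the submitters' processing notes (1.3.4b) give different versions. The notes list both hg19 and GRCh38, the positions in the deposited table, an annotation field of another kind, are those of GRCh38, and whether counting used the strand is not given in the sources used here. Deposited counts are whole numbers, not normalized, and 18 columns of other samples were not used.

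Samples were grouped by the labels, and libraries of one cell line were paired, because both come from that line. Within a line, log2(RLE-scaled count + 1) was compared for 17834 genes with a read in all 6 libraries, with exact Clopper-Pearson 95% intervals on the raw counts and no test. Across lines, edgeR 4.0.16's quasi-likelihood test (TMM, filterByExpr, cell line as block, 2 residual degrees of freedom, Benjamini-Hochberg adjusted p under 0.05) was the test, and DESeq2 1.42.0 the alternative, with 5561 genes given no adjusted p. In simulated counts of 18475 genes for this comparison, edgeR recovered 67% of genes changed by 1 on the log2 scale and 99% of those changed by 2, with 2.9% of calls false. The 200 changed genes had mean counts above 50 and changed by the same amount in each line. Changes that differ between lines, as seen for several of the 10 genes, were therefore not simulated. On the deposited counts, the same edgeR test called MALAT1 alone of 19122 genes. It did not call CCN1, at an edgeR log2 fold change of -1.25, or ANKRD1, at -1.96. Whether the recovery percentages hold for the deposited libraries was not tested. Low counts, such as those of ANKRD1 in H1299, give wide intervals. Genes named are the 10 genes, MALAT1, and, per list, the 4 with the largest mean change of one sign in the 3 lines and a mean count of at least 50. AMOT, CCN3, CCN5, and the single cell type markers outside that rule were named after their values were seen. The genes and lists were chosen with earlier results of these data known. Nothing shows that libraries came from separate cultures within a line. Alternatives changed the tool, normalization, low-count filter, block, pseudocount, and libraries.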

Additional observations from a re-analysis of the deposited data

Results flagged for a closer look

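The log2 fold change of TEAD1, si-MALAT1 minus control, was -0.57 for H460, 0.52 for H1299, and -0.63 for A549, so H1299 had the sign opposite to that of the other lines. LATS2 was at -0.20 for H460, 0.53 for H1299, and -0.32 for A549. With 1 pair of libraries per line, these differences were not tested.

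List medians also differed in sign between lines, without a test. The median over 16 Hippo kinases and upstream genes was -0.06 in H460, 0.20 in H1299, and 0.09 in A549. Over 16 other YAP/TAZ targets it was -0.25 in H460, 0.17 in H1299, and -0.18 in A549. Over 8 SRF/MRTF targets it was -0.13, 0.16, and -0.35.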

How the results depend on the processing

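Genes called lower after si-MALAT1 numbered 1 in the paired edgeR test, 0 without the low-count filter, 0 without the replicate block (the cell line), and 577 with DESeq2, and from 0 to 112 with 1 cell line left out, the highest without H460. Genes called higher numbered 0, 563 with DESeq2, and from 0 to 51 with 1 line left out. Of the 10 genes, 0 were called lower, 6 with DESeq2, and from 0 to 1 with 1 line left out, and without the replicate block the count was 0. The DESeq2 count ran from 4 to 7 with 1 line left out, a choice made after seeing the data. The share of all genes called in those DESeq2 fits was not counted.

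LATS2 reversed its direction with 1 line left out, its log2 fold change running from -0.27 to 0.15. Each of the other 9 genes was lower after si-MALAT1 in every alternative of the paired test, and within lines none of the 90 alternative values changed sign, while 11, each on log2(TPM + 1), moved by more than counting error. For A549 against H460, genes called ran from 3563 to 8506 with 1 library left out, and the 10 genes gave from 1 to 3 calls, and 1 without the low-count filter. For A549 against H1299 they ran from 5839 to 11221, and from 2 to 6, and the 10 genes gave 3 calls with cell line alone in the model. Values that reversed with 1 library left out were not called with all 6 libraries or where reversed. For A549 minus H1299, WWTR1 ran from -0.38 to 0.37 (0.13 with cell line alone), CCN2 from -0.14 to 0.60, AMOTL2 from -0.97 to 0.38, and LATS2 from -0.65 to 0.15, and AMOTL2 and LATS2 were called at their lowest value (edgeR adjusted p = 0.0345 without the A549 control and 0.0282 without the H1299 control). For A549 minus H460, ANKRD1 ran from -0.50 to 2.03, called at the highest value without the A549 si-MALAT1 library (edgeR adjusted p = 0.0159), and AMOTL2 from -0.48 to 0.87. Between lines, 6 comparisons gained a call under at least 1 alternative, the others being WWTR1 and LATS2 in H1299 against H460 and CCN1 in A549 against H460. Depth limits ANKRD1 in H1299, with 26 and 13 reads. The cause was not tested.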
